A study of Mus musculus with 9 samples.

Results

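Supervillin, the product of Svil, is a large relative of villin and gelsolin that binds actin and myosin beneath the plasma membrane. In striated muscle it is found at costameres, the sites that tie the sarcomeres to the membrane. The RNA of mice labelled Svil-Mut was compared with that of wild-type (WT) mice in the left tibialis anterior, a muscle of the lower leg built mostly of fast fibres. All mice were 13-month-old males, and the series title sets the comparison in the context of insulin action, glucose metabolism and muscle function. There were 3 WT libraries (numbered 1, 3 and 4) and 3 Svil-Mut libraries (1, 2 and 4), which are 6 of the 9 libraries of the series. The other 3 come from mice labelled Svil-KO and served to estimate the spread between libraries and for a direct comparison with Svil-Mut. Each library came from 1 mouse, and all 9 carry the same batch label. The labels used here do not say what the Svil-Mut allele changes, on which strain background it was bred, or whether the animals were littermates.

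Genes were tested if they reached a normalised count of 10 in at least 3 of the 6 WT and Svil-Mut libraries, which 14670 of the 56805 genes in the table did. The normalised count is the number of reads of a gene divided by a size factor of its library. Differences are log2 fold changes on log2(normalised count + 1), Svil-Mut minus WT, with the standard error (SE) of a limma fit of all 9 libraries, and the threshold was an adjusted p under 0.05 (Benjamini-Hochberg, over all 14670 genes). The libraries held 36234428 to 48762188 reads. Of the 13 muscle fibre markers examined, all were tested, and their summed normalised counts were 6943620 to 7363460 in WT and 7942430 to 8679180 in Svil-Mut. The 6 libraries thus held abundant muscle fibre RNA, as labelled. On the leading principal component of the 6 libraries, which held 26.1% of the variance, the 2 groups did not overlap. WT libraries 1, 3 and 4 lay at -25.3, -38.5 and -25.0, and Svil-Mut libraries 1, 2 and 4 at 14.3, 70.2 and 4.32. Library 2 of Svil-Mut thus lay farthest out. Library 4 of Svil-Mut stood apart on the next component, which held 21.6%.

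In this comparison 6 genes passed the test, 0.0409% of those tested. Fos, Atf3, Dusp1 and Id1 were higher in Svil-Mut (0.0273% of genes tested), and Mib1 and Svil were lower (0.0136%). An unadjusted p under 0.05 was found for 1499 genes, 10.2% (4.82% higher and 5.4% lower), and a log2 fold change of 1 or more in size for 7.22%. In 2069 genes, 14.1%, no Svil-Mut library overlapped a WT library. DESeq2 on the reads recovered from the same values called 173 genes (1.18%), 103 higher (0.702%) and 70 lower (0.477%), whereas edgeR called 6. The count of 6 rose to 16 without library 1 of Svil-Mut, 12 without library 4 of Svil-Mut, 17 without library 1 of Svil-KO and 12 without library 3 of Svil-KO, and was 4 without library 3 or without library 4 of WT.

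**Figure D1:**
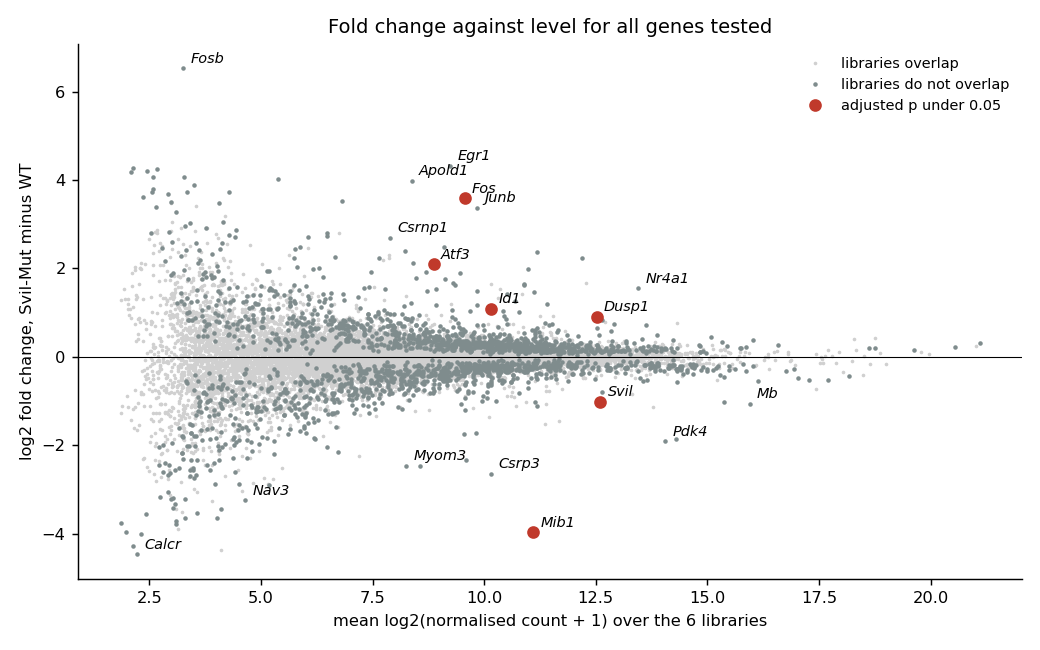
Log2 fold change of Svil-Mut against WT (vertical axis) plotted against the mean log2(normalised count + 1) of the 6 libraries (horizontal axis) for the 14670 genes tested; the fitted value of Fosb, which had no read in WT, depends on the added count of 1. Large red points are the 6 genes called changed, dark points the genes whose libraries did not overlap, and light points the rest.

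Svil itself was measured first, since it is the altered gene. Its normalised counts were 8686, 9373 and 8407 in WT libraries 1, 3 and 4, and 4615, 3939 and 4582 in Svil-Mut libraries 1, 2 and 4. Every Svil-Mut library lay below every WT library, and the Svil-Mut mean was 49.6% of the WT mean. Svil fell by 1.01 ± 0.09 (SE) on the log2 scale (adjusted p = 0.000947). The gene lies at chr18:4920540-5119299 on the plus strand of GRCm38 (GENCODE annotation), and reads were summed over the gene, so the value does not show which of its transcripts remained. The libraries labelled Svil-KO had 7402, 6746 and 6656, above all Svil-Mut libraries, and Svil was lower in Svil-Mut than in Svil-KO by a log2 difference of -0.67 ± 0.09 (SE, adjusted p = 0.0263). That call was lost without library 1 or 4 of WT, library 2 of Svil-Mut, or any 1 of the 3 Svil-KO libraries.

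Of the 8 members of the villin and gelsolin family, 7 were tested, and Svil was the 1 that passed. Without overlap 1 was higher and 2, Svil included, were lower. These shares were 14.3% and 28.6%, beside 7.28% and 6.82% of all genes tested. The lowest fitted difference was -1.50, in a member other than Svil that did not pass. The actin-severing protein scinderin, Scin, had 77.7, 104 and 101 in WT and 135, 131 and 211 in Svil-Mut, without overlap (log2 fold change 0.73 ± 0.27, SE, adjusted p = 0.41). Gelsolin, Gsn, overlapped between the groups, with 24525, 35703 and 20482 in WT and 25313, 16862 and 25281 in Svil-Mut. The median log2 fold change of the 7 members was -0.24, beside -0.0047 over all genes tested. It was 0.04 over the 5 members with a mean of at least 50 in the 6 libraries.

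Mib1 had the largest called difference. It encodes mind bomb 1, a ubiquitin ligase of the signal-sending cell that marks Notch ligands for endocytosis, a step that ligands need to activate Notch on the neighbouring cell. Its normalised counts were 9818, 7634 and 8474 in WT and 547, 623 and 496 in Svil-Mut. The Svil-Mut libraries were close to one another and held 6.43% of the WT mean, a log2 fold change of -3.96 ± 0.21 (SE, adjusted p = 2.99e-05). The Svil-KO libraries, at 9896, 4939 and 8127, were all far above Svil-Mut, with library 3 below the WT range. Mib1 differed between Svil-Mut and Svil-KO by -3.73 ± 0.21 on the log2 scale (SE, adjusted p = 5.3e-05). Mib1 lies on the same chromosome as Svil, at chr18:10725548-10818704 on the plus strand. Mir133a-1hg, annotated as antisense, overlaps this locus. The libraries carry no strand information, so reads of both genes cannot be told apart where they overlap. Mir133a-1hg had 324, 472 and 379 in WT and 265, 242 and 360 in Svil-Mut, with overlap (log2 fold change -0.44 ± 0.19, SE, adjusted p = 0.475).

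Apart from Mib1, no gene of the Notch pathway passed the test. Among the 29 ligands, ligand ligases, receptors and processing enzymes tested, 2 were higher and 3 were lower without overlap, Mib1 included. These shares were 6.90% and 10.3%, beside 7.28% and 6.82% of all genes tested, and the median log2 fold change was -0.18. The ligand gene Dll1 had 173, 185 and 263 in WT and 270, 870 and 277 in Svil-Mut, without overlap (0.98 ± 0.40, SE, adjusted p = 0.438). Jag2, another ligand, had 1280, 1226 and 1119 in WT and 1082, 1010 and 1097 in Svil-Mut, also without overlap (-0.18 ± 0.10, SE, adjusted p = 0.582). Values of Jag1 and Dll4 overlapped between the groups.

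Among 13 nuclear factors and target genes of Notch, 2 were higher and 1 was lower without overlap, with a median of -0.03. These shares were 15.4% and 7.69%, beside 7.28% and 6.82% of all genes tested. The target gene Hes1 had 847, 710 and 642 in WT and 1580, 2982 and 877 in Svil-Mut (1.14 ± 0.39, SE, adjusted p = 0.384). The 3 Svil-Mut libraries were all higher, library 4 by little. Heyl was higher without overlap by a smaller amount (0.36 ± 0.24, SE, adjusted p = 0.66). Snai2, which encodes a transcriptional repressor, had 105, 86.0 and 77.4 in WT and 35.6, 15.3 and 31.2 in Svil-Mut, without overlap (-1.74 ± 0.45, SE, adjusted p = 0.279).

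The genes around Svil, Mib1 among them, were examined because genes near an altered gene travel with it in breeding. The part of this in their values was not tested. Within 10 Mb of the Svil midpoint 47 other genes were tested. Of these 14, or 29.8%, Mib1 included, had libraries that did not overlap, 9 higher and 5 lower. The share was 14.1% over all genes tested and 11.7% over the 300 genes tested on chromosome 18 more than 20 Mb from Svil. Within 20 Mb it was 24.7% of 73 genes. Mib1, 5.75 Mb from Svil, was the 1 neighbour called by limma. DESeq2 called 6 of the 47, beside 1.18% of all genes tested.

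Other neighbours had smaller differences than Mib1. Abhd3, which encodes a phospholipase and lies next to Mib1, had 18.6, 33.4 and 21.4 in WT and 111, 128 and 107 in Svil-Mut. All 3 Svil-Mut libraries were far above WT (2.23 ± 0.45, SE, adjusted p = 0.184). Npc1, the lysosomal cholesterol transporter, had 1608, 1216 and 1435 in WT and 861, 658 and 975 in Svil-Mut, lower without overlap (-0.78 ± 0.17, SE, adjusted p = 0.206). Kif5b, a kinesin motor heavy chain 1.20 Mb from Svil, had 4436, 5162 and 4618 in WT and 7176, 7054 and 7980 in Svil-Mut. Its log2 fold change was 0.64 ± 0.10 (SE) and its adjusted p 0.056. Riok3 (0.36), Impact (0.64) and Cables1 (1.46) were also higher without overlap, and Ccny (-0.29), Tmem241 (-0.95) and Gata6 (-2.56) lower, with adjusted p from 0.227 to 0.384.

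**Figure D2:**
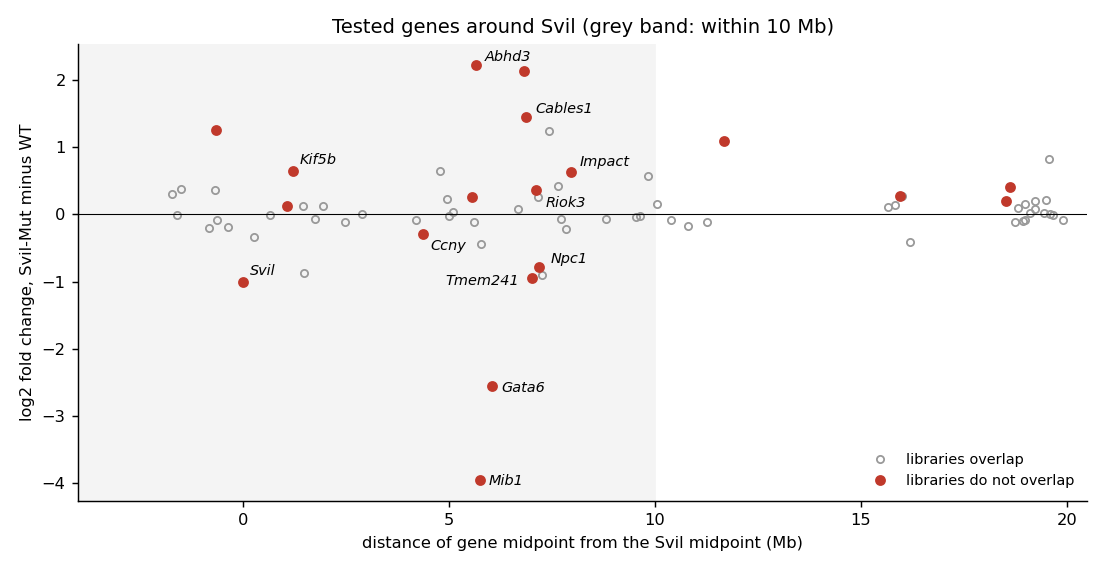
Log2 fold change of Svil-Mut against WT (vertical axis) for tested genes by the distance of their midpoint from that of Svil in Mb (horizontal axis). Filled points are genes whose 3 Svil-Mut libraries did not overlap the 3 WT libraries, open points the others; Mib1, 5.75 Mb from Svil, lies lowest at -3.96.

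Fos and Atf3 belong to the immediate early genes, which are transcribed within minutes of a stimulus such as calcium entry, growth factors or mechanical load, without the need for new protein. Many encode transcription factors, among them the Fos, Jun and ATF proteins, which pair to form the factor AP-1. To show the sequences in front of genes that were higher together, 4 promoters are given: those of Fos, Atf3 and Dusp1, the called genes with an entry among the RefSeq promoters (GRCm38.p6), and that of Fosb. Each runs from 250 bases before to 50 bases after the annotated start, 5′ to 3′ on the strand of the gene. The Fos window is chr12:85473640-85473939 on the plus strand, that of Fosb chr7:19309996-19310295, that of Atf3 chr1:191183284-191183583 and that of Dusp1 chr17:26508423-26508722, the last 3 on the minus strand. Capitals mark TGACG, the core of the cAMP response element, on either strand (CGTCA on the strand shown), its full form TGACGTCA, which contains TGACG on both strands, and the TATA motif TATAAA.
Fos: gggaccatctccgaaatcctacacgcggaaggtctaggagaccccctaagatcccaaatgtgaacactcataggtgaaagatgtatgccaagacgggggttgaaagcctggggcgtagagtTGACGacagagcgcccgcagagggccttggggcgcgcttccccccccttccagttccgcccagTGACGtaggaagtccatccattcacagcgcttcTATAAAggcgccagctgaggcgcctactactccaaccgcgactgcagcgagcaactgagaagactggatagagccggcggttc
Fosb: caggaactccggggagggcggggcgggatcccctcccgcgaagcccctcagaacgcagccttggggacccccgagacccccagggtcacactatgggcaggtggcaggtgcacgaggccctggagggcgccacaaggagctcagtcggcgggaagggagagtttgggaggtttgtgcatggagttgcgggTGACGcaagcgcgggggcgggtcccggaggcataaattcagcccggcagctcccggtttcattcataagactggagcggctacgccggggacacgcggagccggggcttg
Atf3: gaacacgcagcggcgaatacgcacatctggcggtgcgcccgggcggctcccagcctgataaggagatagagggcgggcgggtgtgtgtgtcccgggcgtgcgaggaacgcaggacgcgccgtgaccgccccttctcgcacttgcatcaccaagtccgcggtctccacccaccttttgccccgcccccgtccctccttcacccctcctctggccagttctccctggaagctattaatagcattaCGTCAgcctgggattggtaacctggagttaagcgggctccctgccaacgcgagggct
Dusp1: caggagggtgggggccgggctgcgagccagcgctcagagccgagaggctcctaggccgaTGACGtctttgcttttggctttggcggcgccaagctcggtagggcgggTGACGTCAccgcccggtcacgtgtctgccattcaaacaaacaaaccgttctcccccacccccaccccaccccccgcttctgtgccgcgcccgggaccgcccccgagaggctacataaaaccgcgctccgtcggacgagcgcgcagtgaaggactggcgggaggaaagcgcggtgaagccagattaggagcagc

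Each of the 4 windows held TGACG, and that of Dusp1 also the full TGACGTCA. TGACG was found in 20.8% of all 32851 promoter windows and TGACGTCA in 1.79%. TATAAA, present in the Fos window, was found in 13.6% of all windows. The CArG box bound by serum response factor (found in 1.63% of windows) and the AP-1 motif TGANTCA (7.81%) were searched for on both strands. Neither was in these 4 windows, and sequence outside the windows was not searched. Of the 58 tested genes in the lists of AP-1 and ATF factors, other immediate early genes and dual-specificity phosphatases, 45 had a window, and 29 of these 45 (64.4%) held TGACG, beside 34.9% of the 10477 tested genes with a window. TGACGTCA was in 7 of the 45 (15.6%, beside 3.47%), the CArG box in 4 (8.89%, beside 1.61%), TATAAA in 9 (20%, beside 9.40%) and TGANTCA in 1 (2.22%, beside 6.31%). A match is a description of these letters and does not show binding.

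Fos had 287, 214 and 167 normalised counts in WT and 2740, 2732 and 2418 in Svil-Mut. The Svil-Mut libraries were narrowly spread and all about an order of magnitude above WT, a log2 fold change of 3.59 ± 0.21 (SE, adjusted p = 3.84e-05). Atf3, a stress-induced partner of AP-1, had 267, 201 and 211 in WT and 933, 1246 and 771 in Svil-Mut, without overlap (2.10 ± 0.26, SE, adjusted p = 0.0194). Its call was lost without library 3 of WT (adjusted p = 0.130), library 4 of WT (0.148), library 1 of Svil-Mut (0.0516) or library 2 of Svil-Mut (0.0781), while the log2 fold change was 1.91 to 2.12 in these 4 fits.

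Fosb had no read in any WT library and normalised counts of 95.7, 184 and 42.6 in Svil-Mut. Against a floor of 3 reads per WT library, it was at least 34.4-fold higher in Svil-Mut (adjusted p = 0.056), or at least 22.1-fold without library 2 of Svil-Mut, and it passed the filter through its Svil-Mut values alone. Fosl2, a further Fos family member, had 155, 154 and 174 in WT and 553, 1311 and 487 in Svil-Mut, without overlap (2.13 ± 0.32, SE, adjusted p = 0.0554). Junb had 270, 372 and 228 in WT and 2390, 11759 and 923 in Svil-Mut. All 3 Svil-Mut libraries were above WT, but their spread was more than 10-fold, and the log2 fold change of 3.38 ± 0.79 (SE) did not pass (adjusted p = 0.259). Of the 13 AP-1 and ATF genes tested, 2 passed, 9 were higher without overlap and none lower (7.28% of all genes tested were higher without overlap), and the median log2 fold change was 0.86.

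Among 34 other immediate early genes tested, none passed, but the fitted difference was above 0 in all 34, against 49.3% of all genes tested. In 23 of the 34 the Svil-Mut libraries did not overlap WT, and the median log2 fold change was 1.45. An unadjusted p under 0.05 was found for 27, and DESeq2 called 15. Of all genes tested 7.28% were higher without overlap, 4.82% higher at that unadjusted p, and 0.702% higher by DESeq2. The list was chosen with earlier results of these data known. Nr4a1, an orphan nuclear receptor induced by exercise in muscle, had 6193, 6412 and 6961 in WT and 15469, 22784 and 19767 in Svil-Mut (1.55 ± 0.22, SE, adjusted p = 0.0548). The WT libraries differed little from one another and the lowest Svil-Mut library lay above the highest WT library by more than the whole WT range. Egr1, a zinc finger factor named here after its values were seen, had 144, 189 and 87.6 in WT and 6695, 1661 and 1753 in Svil-Mut (4.32 ± 1.03, SE, adjusted p = 0.265). Its Svil-Mut libraries were all far above WT, with library 1 about 4 times the other 2.

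Csrnp1, which encodes a nuclear protein first found as induced by axin, had 125, 63.7 and 99.8 in WT and 528, 810 and 519 in Svil-Mut (2.70 ± 0.39, SE, adjusted p = 0.0548). Apold1, an endothelial early response gene, had 117, 101 and 47.9 in WT and 1609, 1861 and 778 in Svil-Mut (3.98 ± 0.59, SE, adjusted p = 0.0554). Klf2 and Klf4 encode Krüppel-like factors. Klf2 had 1320, 855 and 1124 in WT and 3891, 3302 and 2856 in Svil-Mut (1.62 ± 0.24, SE, adjusted p = 0.0554), and Klf4 had 211, 183 and 248 in WT and 602, 1074 and 831 in Svil-Mut (1.93 ± 0.30, SE, adjusted p = 0.056). None of these 4 genes overlapped between WT and Svil-Mut. Sik1, a salt-inducible kinase (2.48), Ier5l (1.57), Btg2, an antiproliferative factor (2.37), and Ppp1r15a, a regulator of translation under stress (0.67), were higher without overlap as well, with adjusted p from 0.06 to 0.144.

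Early gene levels also differed among the Svil-KO libraries. Of the 47 AP-1, ATF and other immediate early genes tested, 41 were above all WT libraries in library 1 of Svil-Mut, 39 in library 2 and 39 in library 4. The numbers were 32 in library 1 of Svil-KO, 8 in library 3 and 10 in library 4. Of all 14670 genes tested, 3666 to 4319 lay above all WT libraries in a Svil-Mut library, and 3508 to 3540 (23.9% to 24.1%) in a Svil-KO library, so the counts of libraries 3 and 4 of Svil-KO were near or below the background. Egr1, for example, had 2159, 107 and 84.5 and Nr4a1 13696, 7665 and 6885 in libraries 1, 3 and 4 of Svil-KO. Fos did not follow this, with 245, 284 and 185. Library 1 of Svil-KO enters the estimate of spread. Without it 17 genes were called, among them Nr4a1, Apold1, Csrnp1, Klf2, Klf4, Egr1, Sik1 and Btg2.

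**Figure D3:**
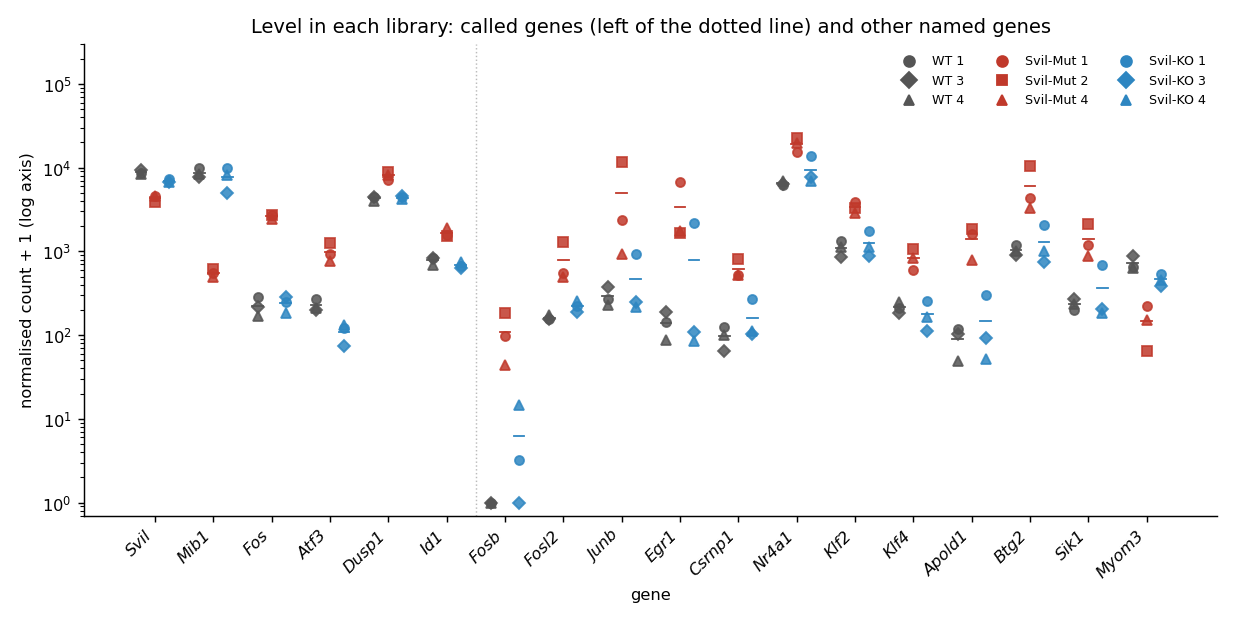
Normalised count + 1 on a log axis in each of the 9 libraries for the 6 called genes (left of the dotted line) and 12 further genes named in the text; short bars are group means. The Svil-Mut libraries (red) lie outside the WT range (grey) for all 18 genes, and Svil-KO library 1 (blue circle) lies above the other 2 Svil-KO libraries for Egr1, Nr4a1 and Sik1.

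Dual-specificity phosphatases switch off the MAP kinases that drive immediate early genes. Dusp1 had 4406, 4502 and 3983 in WT and 7146, 8845 and 8267 in Svil-Mut, and rose by 0.91 ± 0.09 on the log2 scale (SE, adjusted p = 0.00426). It was the 1 member called of 11 tested, of which 3 were higher and 1 lower without overlap (median 0.31). Of all genes tested, 7.28% were higher and 6.82% lower without overlap. The median was 0.05 over the 9 members with a mean of at least 50 in the 6 libraries, and 0.08 without library 4 of WT. Dusp2 had 55.8, 60.7 and 58.1 in WT and 92.7, 212 and 164 in Svil-Mut, higher without overlap (1.33 ± 0.37, SE, adjusted p = 0.311). Dusp7 had 2603, 2564 and 2388 in WT and 2163, 1422 and 1907 in Svil-Mut, lower without overlap (-0.48 ± 0.14, SE, adjusted p = 0.322).

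Id1 encodes an inhibitor of basic helix-loop-helix transcription factors such as MyoD and is a target of BMP-Smad signalling. It had 836, 826 and 684 in WT and 1575, 1527 and 1891 in Svil-Mut, and rose by 1.09 ± 0.13 on the log2 scale (SE, adjusted p = 0.0142). The call was lost without library 3 of WT (adjusted p = 0.0632) or library 4 of WT (0.0910). The median of the 21 genes of the Id and BMP-Smad list was 0.14. Without overlap 3 were higher and none lower, beside 7.28% and 6.82% of all genes tested. Besides Id1 the higher genes were Smad1, a signal transducer of BMP receptors, and Tob1, an antiproliferative factor. Smad1 had 811, 771 and 662 in WT and 969, 1033 and 1015 in Svil-Mut (0.43 ± 0.12, SE, adjusted p = 0.296). Tob1 had 10580, 9068 and 9737 in WT and 14534, 19378 and 14823 in Svil-Mut (0.72 ± 0.12, SE, adjusted p = 0.0908).

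Other genes that respond to stress, hormones and time of day were described by list, and limma called none of their members. Over all genes tested 7.28% were higher and 6.82% lower without overlap, and DESeq2 called 1.18%. Among 23 growth arrest genes and p53 targets, 7 were higher without overlap and none lower, and DESeq2 called 4 (median 0.19). Cdkn1a, a cell cycle inhibitor, had 350, 466 and 484 in WT and 658, 1379 and 813 in Svil-Mut, without overlap (1.07 ± 0.24, SE, adjusted p = 0.23). Of 30 genes of endoplasmic reticulum stress, 6 were higher without overlap and none lower, and DESeq2 called 2 (median 0.18). The chaperone gene Hspa5 had 9969, 10524 and 10120 in WT and 12161, 14344 and 14454 in Svil-Mut (0.42 ± 0.08, SE, adjusted p = 0.157). The WT values were close together and all 3 Svil-Mut values lay above them.

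Among 21 circadian clock genes, 6 were higher without overlap and none lower (beside 7.28% and 6.82% of all genes), and DESeq2 called 3 (median 0.16). Arntl, an activator of the core loop, had 596, 380 and 502 in WT and 817, 1091 and 750 in Svil-Mut (0.85 ± 0.20, SE, adjusted p = 0.256). Nr1d1, a repressor of Arntl, had 2701, 2482 and 2629 in WT and 4763, 3220 and 3707 in Svil-Mut (0.56 ± 0.17, SE, adjusted p = 0.327). Both were thus higher in all 3 Svil-Mut libraries. The labels give no time of day of collection, so clock time and genotype cannot be told apart here.

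The 24 heat shock chaperones had 5 members higher and 2 lower without overlap, beside 7.28% and 6.82% of all genes tested. DESeq2 called 2 of them (median 0.12), beside 1.18% of all genes tested. Hspa1a had 93.0, 80.9 and 103 in WT and 302, 2013 and 135 in Svil-Mut, and Dnajb1 had 370, 350 and 381 in WT and 802, 3109 and 589 in Svil-Mut. Library 2 of Svil-Mut was the highest by far in both, and also for the metallothionein Mt1, at 13303 against 1767 and 2707 in the other Svil-Mut libraries and 806 to 1322 in WT. The small heat shock protein gene Cryab was lower without overlap, with 20964, 26088 and 28593 in WT and 17702, 15831 and 17223 in Svil-Mut (-0.57 ± 0.11, SE, adjusted p = 0.143).

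Among 20 glucocorticoid-responsive genes, 6 were higher and 2 lower without overlap (beside 7.28% and 6.82% of all genes), with a median log2 fold change of 0.34. The median was 0.07 without library 4 of Svil-Mut, and DESeq2 called 2. Of 25 cytokine, chemokine and NF-kB feedback genes tested, out of 34, 7 were higher and 1 lower without overlap (median 0.57), and DESeq2 called none. That median was 0.28 over the 19 genes with a mean of at least 50 in the 6 libraries. The 26 interferon-stimulated genes had a median of -0.06, the 31 collagen and matrix genes -0.18 and the 72 cytosolic ribosomal protein genes 0.01. Of the other cells, all 15 markers of fibro-adipogenic progenitors, which produce matrix, had fitted differences below 0 (median -0.18), none without overlap. Their sums were 49644 to 73109 in WT and 39994 to 54952 in Svil-Mut. In single libraries their median difference from the WT mean was -0.14, 0.36 and -0.27 in WT and -0.07, -0.55 and 0.04 in Svil-Mut. The 12 tenocyte markers, of tendon cells, had a median of -0.61, with 10 below 0. Their sums were 8212 to 15948 in WT and 6306 to 11045 in Svil-Mut. By library their median difference was -0.75, 0.44 and 0.31 in WT and 0.03, -1.24 and -0.34 in Svil-Mut. No marker of either was at 0 in all 6 libraries, and their part in the collagen values was not tested. In the 5 pathway lists limma called no gene, and DESeq2 called 1 collagen or matrix gene.

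Insulin action and glucose metabolism are named in the series title. Among 42 genes of the insulin receptor, its substrates and its brakes, limma called none and DESeq2 called 1, Irs2. Without overlap 7 were higher and 5 lower (beside 7.28% and 6.82% of all genes tested), with a median log2 fold change of 0.03. Irs2, an insulin receptor substrate, had 1119, 1116 and 972 in WT and 1699, 4855 and 4645 in Svil-Mut. Libraries 2 and 4 of Svil-Mut were the high ones, and the lowest Svil-Mut library still lay above WT (1.66 ± 0.34, SE, adjusted p = 0.184, and 0.0029 by DESeq2). Irs1, the other main substrate in muscle, had 582, 542 and 439 in WT and 668, 1122 and 914 in Svil-Mut, without overlap (0.77 ± 0.23, SE, adjusted p = 0.323). The insulin receptor gene Insr overlapped between the groups, at 1676, 2117 and 1724 against 1520, 1513 and 1974. Akt2, the main insulin-responsive Akt kinase of muscle, had 3815, 4649 and 3745 in WT and 4877, 4783 and 5525 in Svil-Mut (0.32 ± 0.12, SE, adjusted p = 0.42).

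GLUT4, the insulin-responsive glucose transporter encoded by Slc2a4, had 28896, 26268 and 29029 in WT and 30466, 30225 and 30750 in Svil-Mut. The Svil-Mut values were higher without overlap, by a log2 fold change of 0.12 ± 0.07 (SE, adjusted p = 0.578). Slc2a1, which encodes the basal transporter GLUT1, had 493, 575 and 428 in WT and 772, 722 and 890 in Svil-Mut (0.68 ± 0.14, SE, adjusted p = 0.206, and 0.0075 by DESeq2). Of 24 genes of GLUT4 trafficking, 6 were higher and none lower without overlap (median 0.08), beside 7.28% and 6.82% of all genes tested. Tbc1d1, a Rab regulator that restrains GLUT4 vesicles, had 7326, 5638 and 7274 in WT and 5709, 4835 and 4472 in Svil-Mut, with overlap (-0.43 ± 0.13, SE, adjusted p = 0.336). The 39 genes of glycolysis and glycogen had a median of -0.0048, with 1 higher and 2 lower without overlap, namely Pfkfb4, and Pfkfb1 and Ldhb.

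Many genes of mitochondrial fuel oxidation had slightly lower values in Svil-Mut. Limma called none of them, and the genes called by DESeq2 are counted beside each list. The pyruvate dehydrogenase complex admits carbohydrate carbon to the citric acid cycle, and its kinase Pdk4 inhibits it. Pdk4 had 39432, 17331 and 52686 in WT and 5976, 9859 and 11614 in Svil-Mut. The Svil-Mut libraries were all lower, although WT varied 3-fold among its own libraries (-1.91 ± 0.47, SE, adjusted p = 0.266). Pdha1, a subunit of the complex, had 22874, 22986 and 22054 in WT and 20798, 19290 and 16404 in Svil-Mut, without overlap (-0.27 ± 0.09, SE, adjusted p = 0.344). Of the 15 genes of the complex and its regulators, 1 was higher and 4 were lower without overlap (median -0.18), and DESeq2 called none. Of all genes tested, 7.28% were higher and 6.82% lower without overlap.

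In the citric acid cycle and the nuclear-encoded subunits of respiratory complexes I, III and IV and the ATP synthase, the fitted difference was below 0 in all 96 genes tested, beside 50.7% of all genes tested. The differences ran from -0.40 to close to 0 with a median of -0.21, and 58 of the 96 (60.4%) were lower without overlap, beside 6.82% of all genes. None of the 96 passed by limma, 63 had an unadjusted p under 0.05, and DESeq2 called 2. Of all genes tested 5.4% were lower at that unadjusted p, and DESeq2 called 0.477% lower. In library 1 of Svil-Mut 65 of the 96 lay below all WT libraries, in library 2 86 and in library 4 93. In Svil-KO the counts were 16, 49 and 33 in libraries 1, 3 and 4. Over all genes tested, 25.7% to 29.1% lay below all WT libraries in a Svil-Mut library and 24.3% to 25.5% in a Svil-KO library. Against Svil-KO the median was -0.18, also with no gene called. That comparison shares the Svil-Mut libraries with the one against WT.

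Ndufv1, a core subunit of complex I, had 29320, 28917 and 31057 in WT and 27022, 22797 and 19424 in Svil-Mut (-0.38 ± 0.10, SE, adjusted p = 0.295). Uqcrq of complex III had 23818, 23907 and 28926 in WT and 22328, 19109 and 17351 in Svil-Mut (-0.38 ± 0.10, SE, adjusted p = 0.279). Cox5b of complex IV had 15545, 15484 and 17718 in WT and 14024, 13268 and 11618 in Svil-Mut (-0.33 ± 0.08, SE, adjusted p = 0.279). In each of these genes the highest Svil-Mut value lay below the lowest WT value. Mdh1, a malate dehydrogenase, was also lower without overlap, with 44737, 43501 and 49260 in WT and 41476, 33506 and 30188 in Svil-Mut (-0.40 ± 0.11, SE, adjusted p = 0.293).

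The mitochondrial genome encodes 13 subunits of the same complexes, and 12 of these genes were tested. All 12 had fitted differences below 0, 9 were lower without overlap, and DESeq2 called 6, with a median of -0.49. Of all genes tested 6.82% were lower without overlap, and DESeq2 called 0.477% lower. The complex I gene mt-Nd4 had 156956, 143073 and 175046 in WT and 123819, 122760 and 96338 in Svil-Mut (-0.47 ± 0.11, SE, adjusted p = 0.263). Mitochondrial genes together held 5.98 ± 0.61% of reads in WT and 4.58 ± 0.58% in Svil-Mut (SD, n = 3 each), a difference of -1.40 percentage points (exact permutation test, 2-sided p = 0.1, the smallest that 3 against 3 allows). Nuclear pseudogenes can be nearly identical to mitochondrial genes and share their reads, so the values of single mitochondrial genes are uncertain. The share of reads in the 10 most abundant genes was 25.2 ± 0.58% in WT and 28.2 ± 0.58% in Svil-Mut (SD, n = 3 each, exact permutation test, 2-sided p = 0.1), and this share and the mitochondrial genes draw on the same total of reads. The part of this difference in the lower mitochondrial values was not tested.

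Fatty acid oxidation showed the same direction with fewer clean separations. Of 37 genes of uptake and oxidation, 33 had fitted differences below 0 (median -0.37). Without overlap 6 were lower and none higher, beside 6.82% and 7.28% of all genes tested. DESeq2 called 1, Cpt1a. Cpt1a, which carries fatty acids into mitochondria, had 456, 355 and 529 in WT and 239, 187 and 257 in Svil-Mut (-0.96 ± 0.21, SE, adjusted p = 0.227). The muscle form Cpt1b overlapped, with 71.1, 46.5 and 61.1 in WT and 70.3, 60.1 and 63.4 in Svil-Mut. The cytosolic carrier Fabp3 had 21401, 15260 and 27832 in WT and 16225, 9037 and 5860 in Svil-Mut, overlapping through library 1 of Svil-Mut (-1.13 ± 0.33, SE, adjusted p = 0.322). Ppargc1a, the coactivator PGC-1α of mitochondrial biogenesis, also overlapped, at 1667, 1953 and 2453 against 1920, 1910 and 1786. The list of 19 genes around it had a median of -0.05.

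**Figure D4:**
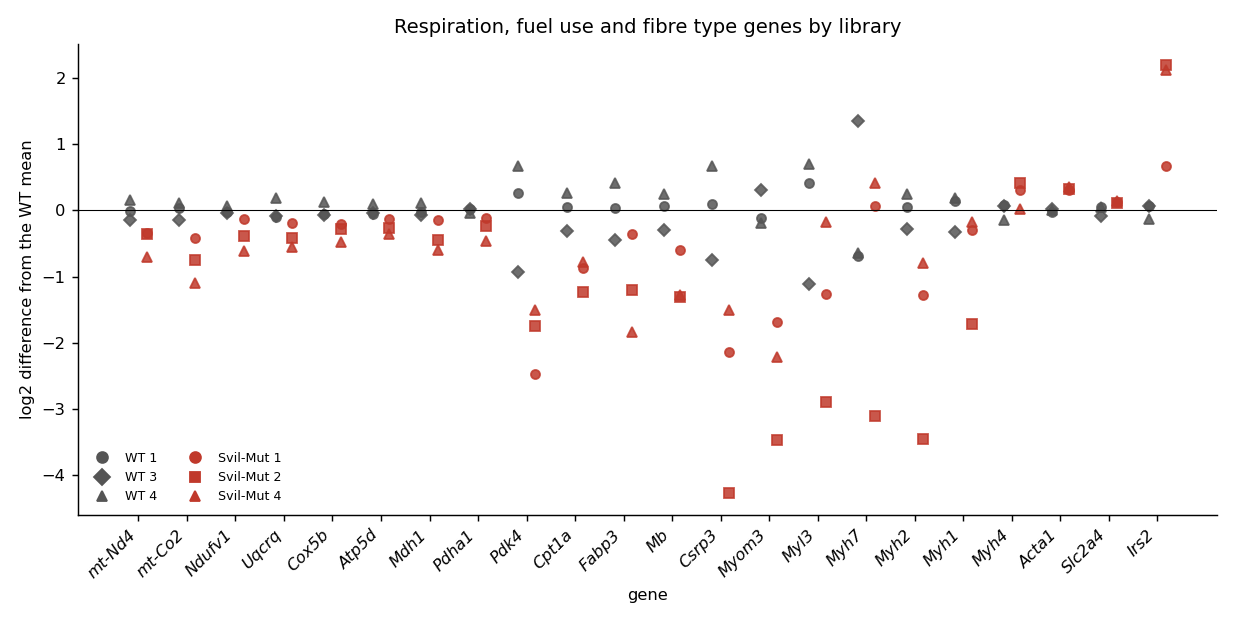
Log2 difference from the WT mean (vertical axis) in each WT (grey) and Svil-Mut (red) library for 22 genes of respiration, fuel use, fibre type and insulin action. Respiratory genes lie slightly below 0 in all Svil-Mut libraries, while Csrp3, Myl3, Myh7, Myh2 and Myh1 are lowest in Svil-Mut library 2 (square).

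The slow fibre contractile list was lowest in library 2 of Svil-Mut, while some oxidative genes were lower in all 3 Svil-Mut libraries. Of 14 slow fibre contractile genes tested, 13 had fitted differences below 0 and 2 were lower without overlap, beside 6.82% of all genes. The median was -0.84 with all libraries and -0.08 without library 2 of Svil-Mut. In single libraries the median difference from the WT mean was -0.28 in library 1 of Svil-Mut, -2.15 in library 2 and 0.10 in library 4. Myoglobin, Mb, which stores oxygen in oxidative fibres, had 95259, 74244 and 107775 in WT and 60350, 37001 and 37642 in Svil-Mut, lower in all 3 (-1.06 ± 0.21, SE, adjusted p = 0.165, and 0.0210 by DESeq2). Csrp3, the muscle LIM protein of the Z-disc, had 3028, 1683 and 4495 in WT and 641, 146 and 1001 in Svil-Mut, without overlap (-2.64 ± 0.58, SE, adjusted p = 0.227). The slow myosin heavy chain Myh7 overlapped, with 79.9, 333 and 82.5 in WT and 136, 14.3 and 174 in Svil-Mut.

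Among the fast fibre genes, Myh2, the myosin of oxidative fast (2A) fibres, had 39184, 31100 and 44893 in WT and 15669, 3474 and 21748 in Svil-Mut. All Svil-Mut libraries were lower, library 2 most (-1.84 ± 0.53, SE, adjusted p = 0.322). Myh1 of 2X fibres overlapped, at 251009, 179997 and 258741 against 183764, 68852 and 200618, and so did Myh4 of 2B fibres, at 2068890, 2048130 and 1777800 against 2423670, 2610190 and 1983090. Over 15 fast fibre genes the median was 0.11, with 2 higher and 1 lower without overlap, beside 7.28% and 6.82% of all genes tested. Myom3, an M-band protein found in slower fibres, had 656, 886 and 625 in WT and 221, 64.0 and 152 in Svil-Mut (-2.46 ± 0.37, SE, adjusted p = 0.0554). It was among the lower genes closest to the threshold.

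Skeletal actin, Acta1, had 1969090, 2033010 and 1994910 in WT and 2475510, 2502110 and 2543890 in Svil-Mut, tight within each group and higher in Svil-Mut (0.33 ± 0.09, SE, adjusted p = 0.295, and 0.00132 by DESeq2). The cytoplasmic actin Actg1 had 1127, 980 and 943 in WT and 1892, 2573 and 1480 in Svil-Mut, without overlap (0.93 ± 0.17, SE, adjusted p = 0.136). Among 30 sarcomere and Z-disc genes, Acta1 included, 2 were higher and 5 lower without overlap (median -0.09). The 30 genes of the costamere, the dystrophin complex and integrins had a median of 0.05, with 2 higher and 1 lower without overlap. Of 30 genes of excitation-contraction coupling, 5 were higher and none lower without overlap (median 0.06), beside 7.28% and 6.82% of all genes tested. Ryr1, the calcium release channel, had 57314, 54693 and 54333 in WT and 62062, 67233 and 66086 in Svil-Mut (0.23 ± 0.06, SE, adjusted p = 0.31).

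Markers of other cells were counted because a whole muscle holds several cell types, and in such bulk RNA fewer cells of a type and less RNA per cell cannot be told apart. The 20 endothelial markers were all tested. Their summed normalised counts were 33403 to 42342 in WT and 32784 to 39358 in Svil-Mut, with a median log2 fold change of -0.01 and no marker at 0. The part of endothelial cells in the values of Apold1 was not tested. Of the 8 red blood cell markers tested, none was without overlap. Their sums were 9166 to 13242 in WT and 10717, 19664 and 54006 in libraries 1, 2 and 4 of Svil-Mut, with none at 0. Haemoglobin genes are near-identical copies and their separate counts are uncertain. The part of blood in any other difference was not tested.

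Of 13 adipocyte markers tested, 11 had fitted differences below 0, 5 of them at -1 or lower, with none without overlap. An unadjusted p under 0.05 was found for 5 of the 13, all lower, beside 5.4% of all genes tested. The median difference from the WT mean was -0.75 in library 1 of Svil-Mut, -1.05 in library 2 and -0.02 in library 4. Cidec, a lipid droplet protein, had 37.2, 115 and 107 in WT and 0, 0 and 53.9 in Svil-Mut, and the hormone gene Adipoq had 72.2, 139 and 85.6 in WT and 1.02, 8.59 and 117 in Svil-Mut. The 15 adipocyte markers summed to 140819 to 270981 in WT and 173829 to 235036 in Svil-Mut, with Ucp1 at 0 in all 6 libraries. Adipoq and Cidec are a small part of these sums, so the sums do not follow them. The part of these cells in the lower fatty acid values was not tested. Macrophage markers summed to 1781 to 2755 in WT and 1882, 1902 and 4591 in libraries 1, 2 and 4 of Svil-Mut, with none at 0, and neutrophil markers to 24.5 to 170 in WT and 59.1, 81.1 and 543, with Ly6g at 0. Both were highest in library 4 of Svil-Mut.

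Satellite cell markers summed to 171361 to 191131 in WT and 184227 to 203728 in Svil-Mut, with none at 0 in all 6 libraries. The list holds Des, which is also among the muscle fibre markers, so the sum does not measure satellite cells alone. Over the 15 markers the median was 0.06, with 3 higher and 4 lower without overlap, beside 7.28% and 6.82% of all genes tested. Calcr, the calcitonin receptor of quiescent satellite cells, had 49.2, 15.2 and 12.2 in WT and no read in Svil-Mut. Against a floor of 3 reads per Svil-Mut library it was at least 8.75-fold lower (adjusted p = 0.234), or at least 4.69-fold without library 1 of WT, the highest. Calcr passed the filter through its WT values alone. Svil-KO had 0, 0 and 2.39. Myod1, a myogenic transcription factor, had 2028, 1811 and 1651 in WT and 2113, 3455 and 3022 in Svil-Mut, without overlap (0.62 ± 0.17, SE, adjusted p = 0.284).

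**Figure D5:**
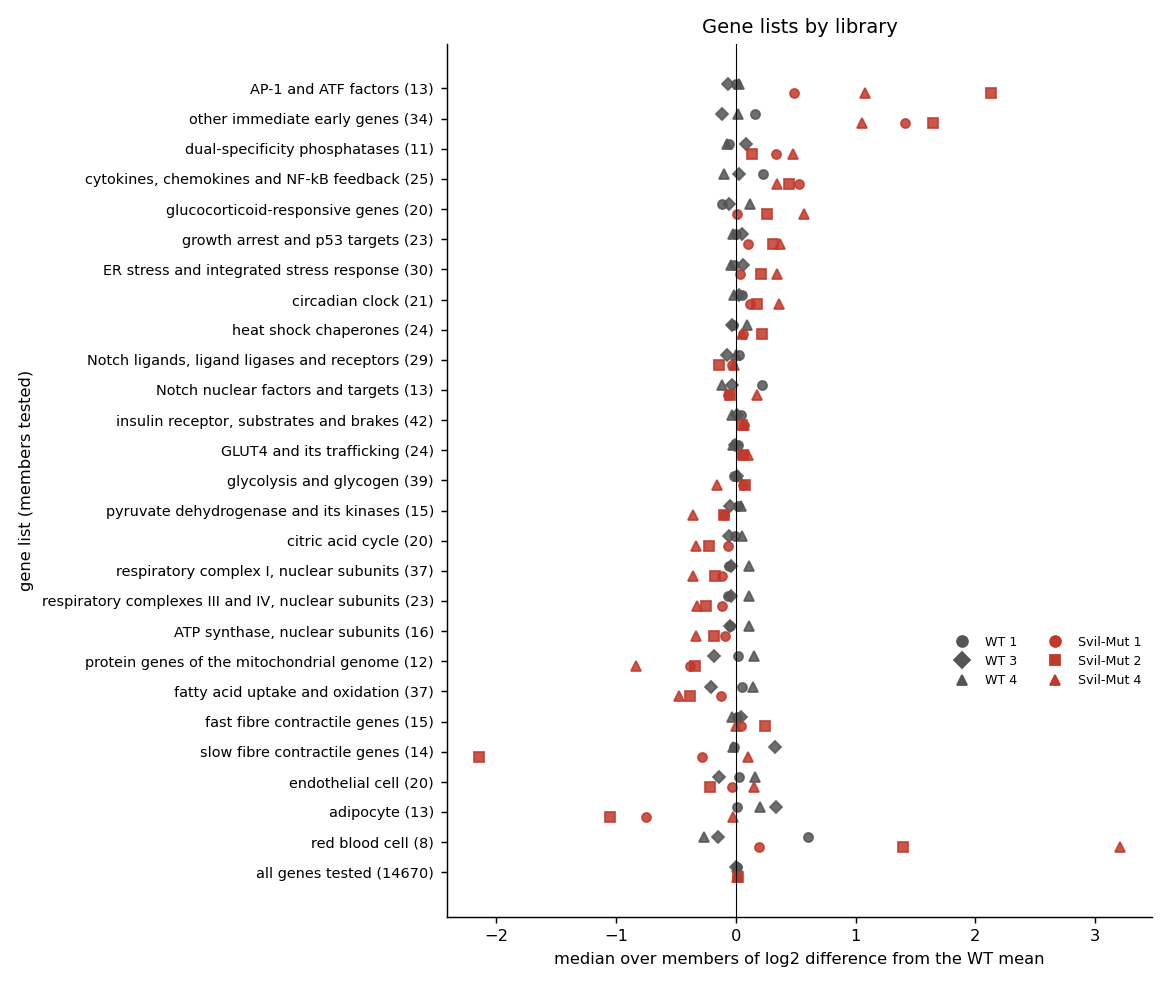
Median over the tested members of each gene list of the log2 difference from the WT mean (horizontal axis), in each WT (grey) and Svil-Mut (red) library. The lists of AP-1, ATF and other immediate early genes lie above the WT libraries in all 3 Svil-Mut libraries, the citric acid cycle and respiratory lists lie below, and the slow fibre and red blood cell lists are spread among the Svil-Mut libraries.

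The differences of the 6 called genes were also tested against the Svil-KO libraries. They were chosen for their Svil-Mut values against WT, and the same 3 Svil-Mut libraries enter here, so a difference is partly built in and is no independent support. In that comparison 7 genes (0.0477%) were called, the 6 and Klf4. Fos was higher in Svil-Mut than in Svil-KO by 3.48 ± 0.21 (SE, adjusted p = 5.3e-05) and Atf3 by 3.19 ± 0.26 (SE, adjusted p = 0.000688) on the log2 scale. Dusp1 was higher by 0.88 ± 0.09 (SE, adjusted p = 0.00466) and Id1 by 1.28 ± 0.13 (SE, adjusted p = 0.00376). Atf3 in Svil-KO was 121, 72.4 and 132, below all WT libraries, so that its difference from Svil-Mut was larger than that between Svil-Mut and WT. Klf4 had 253, 112 and 163 in Svil-KO and differed from Svil-Mut by 2.28 ± 0.30 (SE, adjusted p = 0.0273).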

How the data were processed

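The members and gene lists were chosen with earlier results of these data known. Libraries were primed with oligo(dT) and made with SMARTer v4 and Nextera XT, per the labels' protocols, a scheme that keeps no strand. Per the submitters' processing notes, HISAT2, featureCounts and DESeq2 were used on mm10, with tool versions not given in the sources used here. Values deposited by the authors are a signal, namely counts scaled by library size factors. Undoing the scaling gave whole reads within 0.001 for 100% of values. Without molecular identifiers, reads may include PCR copies. Normalised values were tested with limma 3.58.1 (R 4.3.3; log2(value + 1), variance trend, all 9 libraries, genotype only), tested also on simulated data. edgeR 4.0.16 and DESeq2 1.42.0 were run on recovered reads as alternatives. Positions came from GENCODE (GRCm38), matched by symbol for 95.9% of tested genes. Python 3.11.15 and matplotlib 3.10.9 were used. Named genes were Svil, called genes, further genes by smallest unadjusted p without overlap (30 in all), up to 4 per list, and textbook members. Gsn, Junb, Egr1, Bdh1, Mir133a-1hg and the Svil neighbours apart from Mib1 and Kif5b fall outside this rule and were chosen once their values had been seen. Replicate numbers are shared by WT and Svil-Mut for libraries 1 and 4 but were not used as pairs in the reported fit. Other settings were other pseudocounts, filters, scalings, variance models and leaving out each library.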

Additional observations from a re-analysis of the deposited data

How the results depend on the processing

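The count of called genes was 6 in the reported fit. It was 19 with a pseudocount of 10, 18 with a mean of at least 50, 13 with robust variances, 14 with the WT and Svil-Mut libraries alone, 20 at an adjusted p of 0.10 and 173 by DESeq2. Leaving out 1 library gave 4 to 17 (16 without Svil-Mut 1, 12 without Svil-Mut 4, 17 without Svil-KO 1, 12 without Svil-KO 3). The number of the 6 that also differed from Svil-KO was 4 to 6 when 1 library was left out. Svil was lost without WT 1, WT 4, Svil-Mut 2 or any Svil-KO library, and Dusp1 without Svil-KO 4. Svil, Mib1 and Fos kept their call under all 22 alternatives run. Without the variance trend the calls of Dusp1, Id1 and Atf3 were lost (adjusted p = 0.112, 0.112 and 0.129). Same-numbered WT and Svil-Mut libraries did not deviate together (r = -0.0065 and -0.057). These correlations cannot show whether the mice were paired or littermates. With the replicate number as a block 7 genes were called, of which 3 were shared with the reported 6 (Mib1, Fos and Svil). The others were Klf2, Apold1, Bdh1 and Pdk4. In that fit 3 of the 6 differed from Svil-KO (not Svil, Dusp1 or Id1). In the reported fit Bdh1 held 33.2% of the WT mean in Svil-Mut, lower without overlap (adjusted p = 0.144 by limma and 3.6e-05 by DESeq2).

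Some uncalled genes changed sign under an alternative. With the replicate block these were Insr (0.0041), Myh7 (0.36) and Jag1 (0.42). With quantile normalisation Myh4 did so (-0.032). Leaving out 1 library at a time gave -1.51 to 0.24 for Myh7 and -0.47 to 0.34 for Jag1 (both highest without Svil-Mut 2), -0.23 to 0.053 for Ppargc1a (highest without WT 4) and -0.032 to 0.27 for Cpt1b (lowest without WT 3). The cause was not tested. The bounds for Fosb and Calcr without single libraries were chosen after seeing the data. Of 440 recomputed list medians, 404 shifted by less than the SD of the 3 Svil-Mut library medians of their list, and 36 did not. This tolerance is wide where the Svil-Mut libraries differ from one another. The slow fibre median, -0.84 in the reported fit and -0.08 without Svil-Mut 2, falls within it. Quantile normalisation was not among the 440.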
